A study of Mus musculus with 6 samples.

Results

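The 10 genes followed here mark basophils and mast cells, and their RNA was measured in acute myeloid leukemia (AML) blasts that differ in Tet2. They are Cpa3, Ms4a2, Mcpt8, Hdc, Slc18a2, Cyp11a1, Fcer1a, Cd200r3, Prss34 and Il1rl1. They were chosen by symbol, as known genes of lineages that depend on the transcription factor GATA2, and are 10 of the 53458 genes measured. The question was whether they move together across mice. RNA-seq was available for 6 mice, 3 Cebpa-/p30 Tet2+/+ mice (mice 19, 23 and 24) and 3 Cebpa-/p30 Tet2-/- mice (mice 5, 7 and 8), with 1 library from each mouse. All 6 leukemias carried 1 deleted Cebpa allele and 1 allele that makes only the short p30 form of C/EBPα, so that both groups lack the long form. The labels give the strain as C57BL/6, and the study's methods give C57BL/6J for donors and C57BL/6J.SJL for recipients. Per the study's methods, bone marrow of donors with floxed alleles and Mx1-Cre, an interferon-induced Cre that is not limited to blood cells, was transplanted into lethally irradiated adult female congenic recipients, recombination was induced with poly(I:C), and marrow was taken when the mice were moribund. Live donor-derived CD45.2+ cells without CD3, B220 and Ter119 were sorted, a gate that keeps basophils, mast cells and maturing granulocytes beside the blasts. The age of the mice at sampling is not given in the sources used here.

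Basophils and mast cells carry the high-affinity IgE receptor, store histamine and proteases in granules, and release them when allergen cross-links the receptor. Both arise from myeloid progenitors in which GATA2 is required, and many of their genes have GATA motifs near the start site. Several of the genes are also used by progenitors before the lineages separate, Cpa3 and Hdc among them, and Hdc is expressed by immature neutrophils as well.

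The estimated counts summed to between 13036643 and 32855343 reads per mouse. The label of the cells was checked with genes of primary granules such as Mpo, whose 7 members summed to between 6000 and 8120 CPM (counts scaled to library size with TMM factors), and with 10 mature neutrophil markers, which summed to between 10700 and 114000 CPM. The neutrophil sum was the larger in every mouse, from 10700 against 7250 CPM in mouse 23 to 114000 against 6020 CPM in mouse 7. The name blasts is kept from the study. T and NK cell markers summed to 165 CPM or less and B and plasma cell markers to 265 CPM or less, after a sort that removes CD3+ and B220+ cells. Nkg7 is in both the T and NK list and the primary granule list, at 58.55 ± 16.98 CPM in Tet2+/+ and 78.73 ± 29.17 CPM in Tet2-/- mice (SD, n = 3 each). The T and NK sum is therefore not a measure of lymphoid cells alone. Tet2 itself was at 83.8 ± 12.95 CPM (SD, n = 3) in Tet2+/+ and 95.8 ± 16.0 CPM (SD, n = 3) in Tet2-/- mice, values that include reads from outside the deleted part of the gene and therefore do not check the labels. Over all genes, edgeR's quasi-likelihood test called 10 genes lower and 0 higher in Tet2-/- blasts at an adjusted p under 0.05 (Benjamini-Hochberg over 22170 genes).

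The 10 genes did not move as 1 set. Cpa3 and Cd200r3 were lower in every Tet2-/- mouse than in every Tet2+/+ mouse, with means 6.32-fold and 4.08-fold apart. Cyp11a1 and Mcpt8 had lower means in Tet2-/- mice with overlapping values, Slc18a2 and Il1rl1 had nearly equal means, and Ms4a2 and Hdc had higher means in Tet2-/- mice, again with overlap. Fcer1a and Prss34 were at or under 3 reads in every mouse. With 8 of the 10 genes tested, edgeR called 0 lower and 0 higher at an adjusted p under 0.05, beside 0.0451% and 0% of all genes tested. At an unadjusted p under 0.05, edgeR called 2 lower (Cpa3 and Cd200r3) and 0 higher, against 5.12% and 3% of all genes. DESeq2 called the same 2 genes lower at an adjusted p under 0.05, where 1.47% of all genes were lower and 0.266% higher, and so did DESeq2 on length-scaled counts, where 1.44% were lower and 0.287% higher. The genotypes did not overlap, with Tet2-/- lower, for 2 of the 8 genes and for 7.71% of the 13839 genes whose mean was 1 CPM or more, and with Tet2-/- higher for 0 of the 8 and 8.24%. The median log2 fold change of the 8 was -0.54 beside 0.00 over all genes tested. Medians of other marker lists lay on both sides of 0, such as -0.77 for eosinophil markers and 0.92 for mature neutrophil markers. In sorted bulk RNA, fewer cells of a type and less RNA per cell cannot be told apart.

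**Figure D1:**
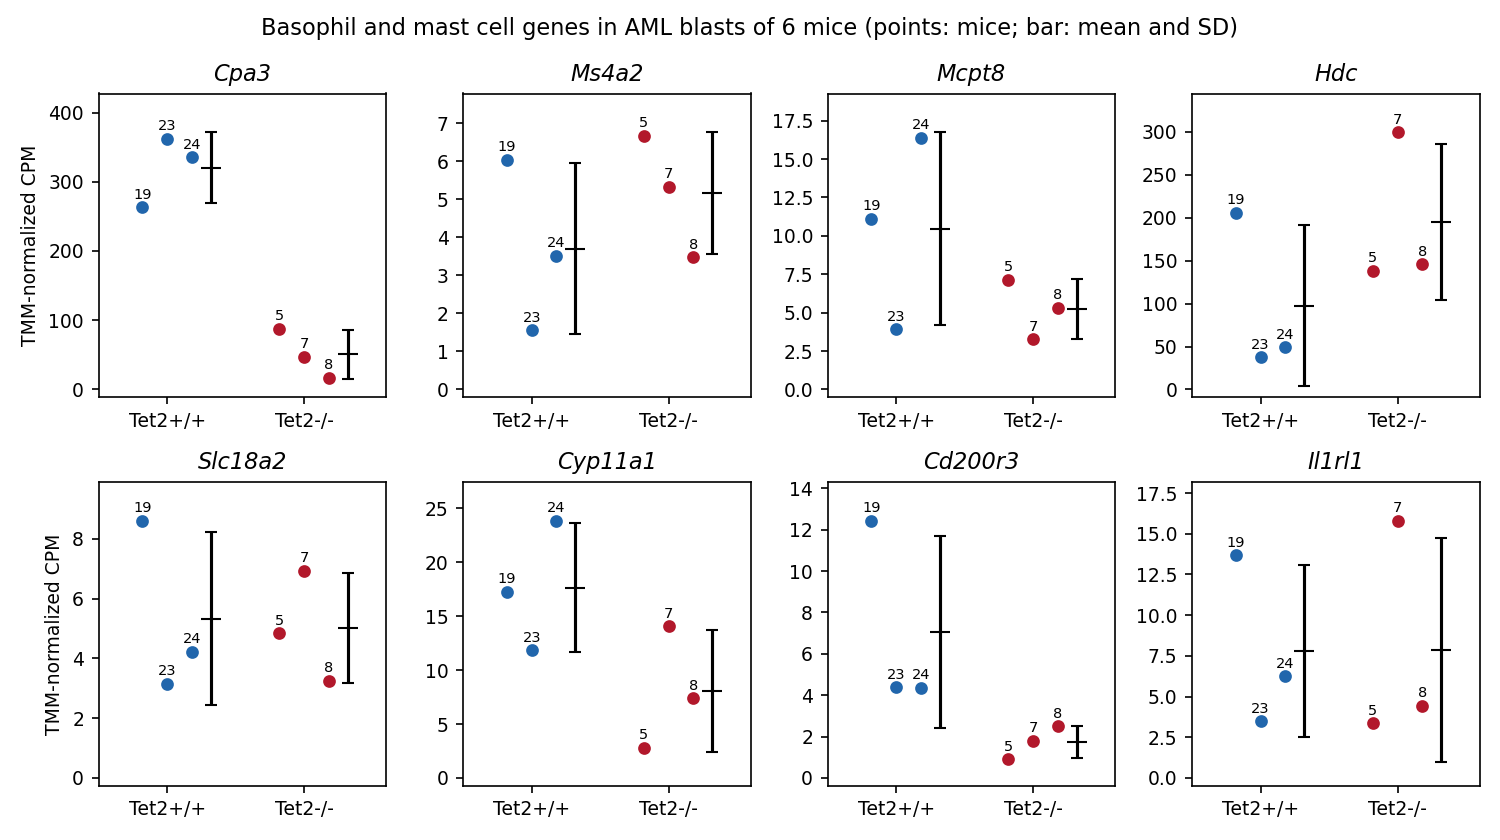
TMM-normalized CPM (y axis, its own linear scale in each panel) of the 8 tested genes in each mouse, with blue points for Tet2+/+ and red points for Tet2-/- mice, the mouse number above each point, and the mean and SD beside them. The genotypes separate for Cpa3 and Cd200r3 and overlap for the other 6 genes.

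RefSeq promoter windows of GRCm38.p6 were found for 10 of the 10 genes (12 windows), and the 250 bases before the start site were searched on both strands for the GATA motifs AGATAA or AGATAG and for the versions with another first base, TGATAA or TGATAG. A match was present for 9 of the 10 genes (10 of their 12 windows), and in 26.5% of the 32851 mouse windows of the same length. Mcpt8 had none. Printed here are the windows of Cpa3 and Cd200r3, which separated the genotypes, of Ms4a2 and Hdc, whose means were higher in Tet2-/- mice, and of Prss34, which was not detected. Motif matches are in capitals on the strand of the gene, and each window ends at the base before the start site. They lie at chr3:20242182-20242431 (minus strand, Cpa3), chr16:44943428-44943677 (plus strand, Cd200r3), chr19:11623720-11623969 (minus strand, Ms4a2), chr2:126618679-126618928 (minus strand, Hdc) and chr17:25298144-25298393 (plus strand, Prss34).
Cpa3: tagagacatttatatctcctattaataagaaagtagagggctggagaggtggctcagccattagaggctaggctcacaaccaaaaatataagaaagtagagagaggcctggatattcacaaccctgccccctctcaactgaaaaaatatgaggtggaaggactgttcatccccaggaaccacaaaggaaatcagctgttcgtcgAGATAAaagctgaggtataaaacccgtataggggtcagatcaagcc
Cd200r3: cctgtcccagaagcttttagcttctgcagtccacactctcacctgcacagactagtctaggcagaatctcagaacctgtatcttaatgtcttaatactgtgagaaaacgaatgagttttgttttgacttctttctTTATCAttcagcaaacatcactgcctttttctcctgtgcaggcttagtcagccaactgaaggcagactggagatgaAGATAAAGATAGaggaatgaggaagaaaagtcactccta
Ms4a2: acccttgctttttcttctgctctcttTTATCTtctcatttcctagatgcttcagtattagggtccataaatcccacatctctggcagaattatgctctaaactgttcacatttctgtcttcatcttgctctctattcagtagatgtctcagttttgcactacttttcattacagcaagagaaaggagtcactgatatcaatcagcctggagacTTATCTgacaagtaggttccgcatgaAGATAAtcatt
Hdc: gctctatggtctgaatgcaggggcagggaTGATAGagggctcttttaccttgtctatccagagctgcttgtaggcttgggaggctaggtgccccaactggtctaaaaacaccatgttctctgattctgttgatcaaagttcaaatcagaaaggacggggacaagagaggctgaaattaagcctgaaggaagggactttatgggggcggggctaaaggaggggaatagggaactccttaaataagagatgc
Prss34: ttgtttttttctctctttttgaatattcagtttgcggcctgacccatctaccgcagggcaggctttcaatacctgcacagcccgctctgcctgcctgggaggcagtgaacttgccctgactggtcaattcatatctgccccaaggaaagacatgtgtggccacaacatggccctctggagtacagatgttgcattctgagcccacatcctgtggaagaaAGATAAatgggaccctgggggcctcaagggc
A match is a description of the letters and not a binding site. The match of Cpa3 begins 46 bases and that of Prss34 31 bases before the start site, while the 1 match of Hdc begins 221 bases before it. Matches were present beside genes that were lower, genes with equal or higher means and genes that were not detected.

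The IgE receptor is made of an α chain that binds IgE (Fcer1a, ENSMUSG00000005339, chr1:173221284-173227214, minus strand), a β chain that amplifies the signal (Ms4a2, ENSMUSG00000024680, chr19:11615523-11623719, minus strand) and a γ chain (Fcer1g) that other Fc receptors share. Fcer1a had 1 read in mouse 19 and 0 reads in the other 5 mice, which is under the 3 reads that a count of 0 allows (between 0.0913 and 0.230 CPM per library). No fold was computed for it. Ms4a2 was at 6.04, 1.55 and 3.52 CPM in Tet2+/+ mice 19, 23 and 24 and at 6.67, 5.34 and 3.47 CPM in Tet2-/- mice 5, 7 and 8. The genotypes overlapped, and mouse 23 stood low. The log2 fold change of Ms4a2 was 0.48 (SE 0.53; edgeR adjusted p = 0.857), and 2 SE either side ran from -0.59 to 1.55. The γ chain gene Fcer1g, which was named after its values were seen, was at 315 ± 25.5 CPM (SD, n = 3) and 415 ± 59.4 CPM (SD, n = 3). In every mouse the α chain gene was thus under the limit of detection, while the β and γ chain genes had reads.

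Cpa3, mast cell carboxypeptidase A, is a granule protease of mast cells that basophils and their progenitors also express (ENSMUSG00000001865, chr3:20215620-20242181, minus strand). In Tet2+/+ mice 19, 23 and 24 it was at 263, 362 and 336 CPM, and in Tet2-/- mice 5, 7 and 8 at 87.7, 47.4 and 16.8 CPM. Every Tet2-/- mouse lay below every Tet2+/+ mouse, the Tet2+/+ mice were within 1.38-fold of each other, and the Tet2-/- mice spread over 5.22-fold with mouse 8 lowest. The mean was 320.5 ± 51.2 CPM (SD, n = 3) against 50.7 ± 35.6 CPM (SD, n = 3). The log2 fold change was -2.66 (SE 0.55, 2 SE either side -3.76 to -1.56; edgeR unadjusted p = 0.00183, adjusted p = 0.283). It was -3.32 without mouse 5 and -2.25 without mouse 8, and the edgeR adjusted p ranged from 0.268 to 0.661 with each mouse left out. DESeq2 gave an adjusted p of 0.000194, and DESeq2 on length-scaled counts, the test of the study's methods, gave 0.000476. Permuting the 6 values over the mice gave an exact two-sided p of 0.1, the smallest that 3 mice against 3 allow. On the TPM scale, which corrects for transcript length, Cpa3 was the most abundant of the 10 genes in Tet2+/+ mice, at 234 ± 55.6 TPM (SD, n = 3), and in Tet2-/- mice it was at 33.9 ± 22.7 TPM (SD, n = 3), below the mean of 59.0 TPM of Hdc.

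Mcpt8 and Prss34 encode serine proteases that in the mouse mark basophils rather than mast cells. Mcpt8 (ENSMUSG00000022157, chr14:56082166-56085273, minus strand) was at 11.1, 3.91 and 16.4 CPM in mice 19, 23 and 24 and at 7.15, 3.28 and 5.32 CPM in mice 5, 7 and 8. Mouse 23 lay among the Tet2-/- mice, and the 2 higher Tet2+/+ values lay above all of them. Mcpt8 had a log2 fold change of -0.99 (SE 0.55; edgeR adjusted p = 0.690), and it was -0.51 without mouse 24. Prss34 (ENSMUSG00000056399, chr17:25298394-25300165, plus strand) had 3 reads in mouse 24, 1 read in mouse 8 and 0 reads in the other 4 mice, so that no fold was computed.

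Hdc, histidine decarboxylase, makes histamine (ENSMUSG00000027360, chr2:126593667-126619299, minus strand). It was at 206, 37.7 and 49.1 CPM in mice 19, 23 and 24 and at 139, 299.7 and 146 CPM in mice 5, 7 and 8. Mice 23 and 24 lay below the Tet2-/- mice, and mouse 19 lay between mouse 8 and mouse 7. The log2 fold change was 1.0 (SE 0.67, 2 SE either side -0.35 to 2.34; edgeR adjusted p = 0.752; exact two-sided permutation p = 0.3). Without mouse 19 it was 2.16, which passed an unadjusted p of 0.05 with edgeR but not the adjusted threshold (adjusted p = 0.237), and without mouse 7 it was 0.55. Levels of Hdc stood beside those of mature neutrophil markers, whose sum was 55700, 10700 and 40000 CPM in mice 19, 23 and 24 and 61700, 114000 and 24000 CPM in mice 5, 7 and 8. Mouse 23 was lowest and mouse 7 highest for both, but the mice between did not share an order. Mouse 24 had a higher neutrophil sum than mouse 8 (40000 against 24000 CPM) and less Hdc (49.1 against 146 CPM). The log2 fold changes of the neutrophil markers were positive for 10 of 10 genes, beside 11111 of the 22170 genes tested. Their median was 0.92, and 0.25 to 1.35 with each mouse left out. At an unadjusted p under 0.05, edgeR called 0 of them, beside 3% of all genes higher. Elane, neutrophil elastase, was at 974, 152 and 296 CPM in mice 19, 23 and 24 and at 1333, 1008 and 913 CPM in mice 5, 7 and 8, with mice 23 and 24 low as for Hdc. It is 1 of 7 primary granule genes, whose median log2 fold change was 0.07 with 3 negative and 4 positive. Of the same list, Mpo (4288 ± 215 and 3048 ± 368 CPM, SD, n = 3 each; log2 fold change -0.49) and the chaperone gene Calr (-0.55) were lower in every Tet2-/- mouse, and Ms4a3 (0.69) was higher in every Tet2-/- mouse, none past edgeR's adjusted threshold. Such separation, 2 of the 7 genes lower and 1 higher, stands beside 7.71% and 8.24% of all genes whose mean was 1 CPM or more. The part of maturing granulocytes in the Hdc values was not tested.

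Slc18a2, the vesicular transporter that loads histamine and serotonin into granules (ENSMUSG00000025094, chr19:59260896-59296012, plus strand), was at 8.61, 3.16 and 4.22 CPM in mice 19, 23 and 24 and at 4.84, 6.94 and 3.26 CPM in mice 5, 7 and 8. The values of the genotypes were interleaved. Its log2 fold change was -0.09 (SE 0.48, 2 SE either side -1.05 to 0.87; edgeR adjusted p = 0.982), and it became 0.44 without mouse 19 and 0.14 without mouse 8. Per length, Hdc was at 31.3 TPM and Slc18a2 at 0.944 TPM on average in Tet2+/+ mice, and at 59.0 and 0.849 TPM in Tet2-/- mice.

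Cd200r3 encodes an activating receptor of the CD200 receptor family on basophils and mast cells (ENSMUSG00000036172, chr16:44943678-44981380, plus strand). It was at 12.4, 4.39 and 4.36 CPM in mice 19, 23 and 24 and at 0.917, 1.80 and 2.495 CPM in mice 5, 7 and 8, from between 28 and 208 reads. All Tet2-/- values lay below all Tet2+/+ values, with mouse 19 apart at the top. The log2 fold change was -2.03 (SE 0.59, 2 SE either side -3.21 to -0.85; edgeR unadjusted p = 0.0107, adjusted p = 0.491; exact two-sided permutation p = 0.1). DESeq2 gave an adjusted p of 0.0466, and 0.0282 on length-scaled counts. Without mouse 19 the log2 fold change was -1.34 (edgeR adjusted p = 0.572).

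Il1rl1 encodes ST2, the receptor of the alarmin interleukin-33, which mast cells and basophils share with type 2 lymphoid cells (ENSMUSG00000026069, chr1:40429570-40465415, plus strand). It was at 13.7, 3.48 and 6.27 CPM in mice 19, 23 and 24 and at 3.35, 15.8 and 4.45 CPM in mice 5, 7 and 8. Each genotype had 1 high mouse, 19 and 7, and the other values were interleaved. Il1rl1 had a log2 fold change of 0.00 (SE 0.72, 2 SE either side -1.44 to 1.45; edgeR adjusted p = 0.999), 0.68 without mouse 19 and -1.0 without mouse 7. Cyp11a1, the side-chain cleavage enzyme that begins steroid synthesis and that mast cells and type 2 immune cells can express (ENSMUSG00000032323, chr9:58006411-58027023, plus strand), was at 17.3, 11.8 and 23.9 CPM in mice 19, 23 and 24 and at 2.82, 14.1 and 7.38 CPM in mice 5, 7 and 8. Only mouse 7 reached into the Tet2+/+ range. The log2 fold change was -1.13 (SE 0.57; edgeR adjusted p = 0.660; exact two-sided permutation p = 0.2), and it ranged from -1.81 without mouse 7 to -0.73 without mouse 5.

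**Figure D2:**
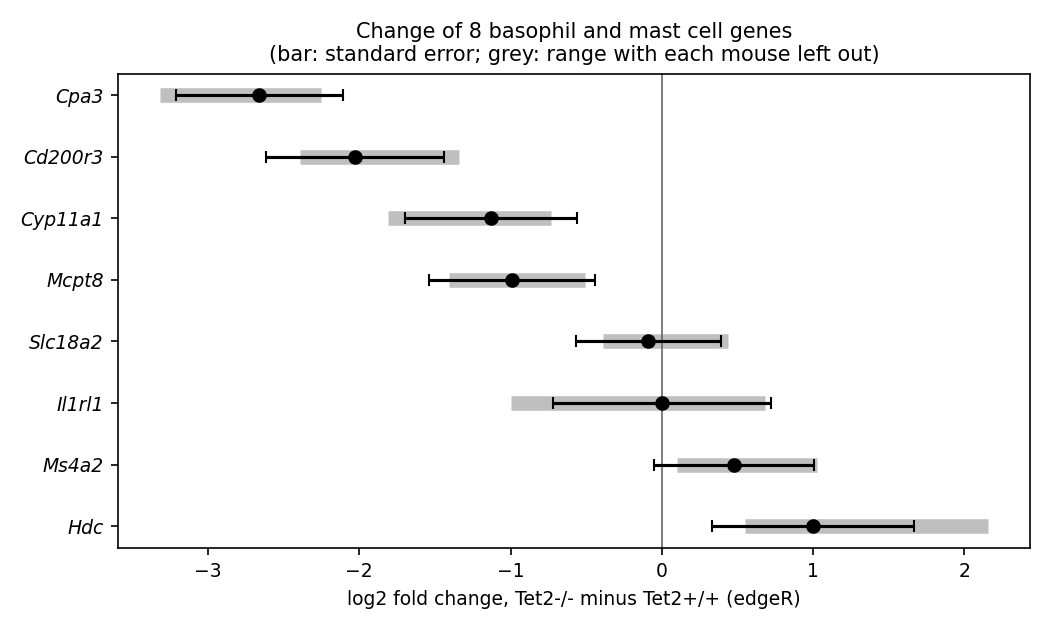
Log2 fold change from edgeR (x axis, Tet2-/- minus Tet2+/+) of the 8 tested genes (y axis), with the standard error as a bar and the range over fits that leave out each mouse in grey. Cpa3 (-2.66), Cd200r3 (-2.03), Cyp11a1 (-1.13) and Mcpt8 (-0.99) stayed below 0 in all 6 of these fits, Hdc (1.0) and Ms4a2 (0.48) above 0, and the ranges of Slc18a2 and Il1rl1 crossed 0.

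For 5 of the 10 genes, 2 or more transcripts had reads and every mouse had at least 30 reads, so that the share of the most abundant transcript could be compared. Cpa3-201 held 92.8% ± 0.679 (SD, n = 3) of the Cpa3 reads in Tet2+/+ and 92.6% ± 0.9 (SD, n = 3) in Tet2-/- mice. These shares differed by less than the SD of either genotype, while the Cpa3 level differed 6.32-fold. Hdc-201 held 92.0% ± 0.751 and 91.5% ± 2.92 (SD, n = 3 each), and Mcpt8-201 held 65.8% ± 9.48 and 64.1% ± 7.51 (SD, n = 3 each). Il1rl1-201 of 5053 bases held 92.9% ± 4.92 and 82.9% ± 13 (SD, n = 3 each), with 68.0% in mouse 8 as the lowest value. Over the 5 genes, Cyp11a1-201 included (77.0% ± 2.14 and 81.4% ± 3.99), exact two-sided permutation tests gave adjusted p between 0.75 and 0.9 (Benjamini-Hochberg), with unadjusted p of 0.2 or more.

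Across the mice, the 8 genes did not share 1 order. Each value was set against the mean of the same gene over the 6 mice on the log2 scale. Mouse 19 was above that mean for 8 of 8 genes, and it was the highest Tet2+/+ mouse for 5 of them (Ms4a2, Hdc, Slc18a2, Cd200r3 and Il1rl1). Mouse 23 was the lowest Tet2+/+ mouse for 6 of the 8 genes, although it had the highest Cpa3 value of all. In Tet2-/- mice, mouse 7 was highest for 4 genes, mouse 5 was lowest for 4, and mouse 8 was above the mean for 1 gene only (Hdc). Erythroid markers were also high in mouse 19, where their sum was 329 CPM, against 103 to 165 CPM in the other 5 mice. The part of other cells in the values of mouse 19 was not tested.

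**Figure D3:**
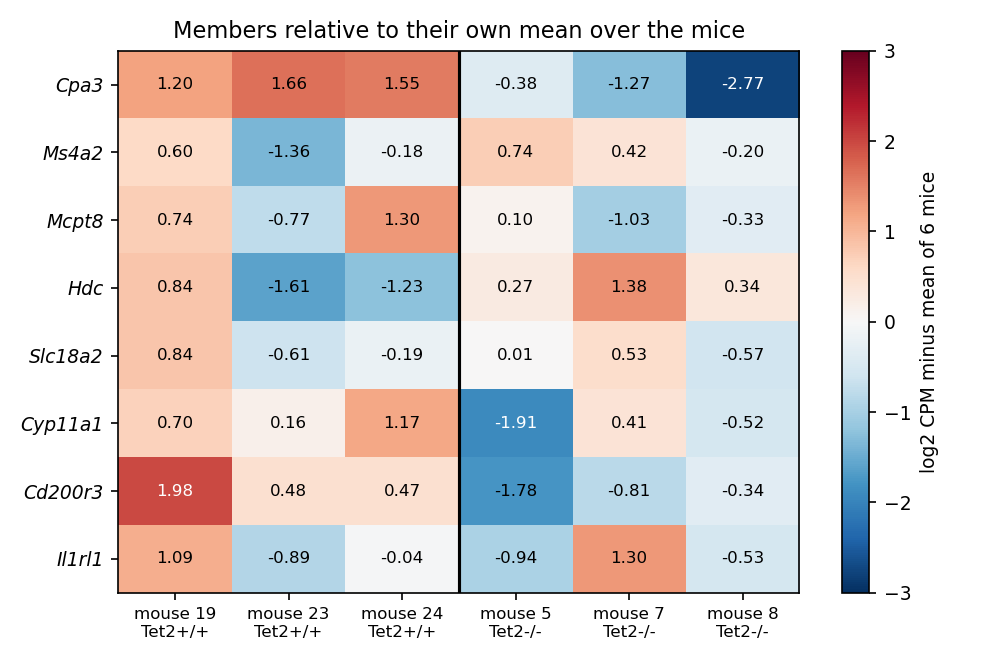
Log2 CPM of each tested gene (rows) in each mouse (columns) minus the mean of that gene over the 6 mice, with red above and blue below the mean and a line between the genotypes. The column of mouse 19 is above the mean throughout, and only the rows of Cpa3 and Cd200r3 change sign between the genotypes without exception.

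Among the 28 pairs of tested genes, the 3 Tet2+/+ mice stood in the same order for 7 pairs, the Tet2-/- mice for 4 pairs, and both for 1 pair, Hdc and Il1rl1. With only 6 possible orders of 3 mice, these counts are a description. The ratio of 2 genes, given in CPM and not per length, varied least across the 6 mice for Ms4a2 and Slc18a2 (2.81-fold) and most for Cpa3 and Hdc (83.5-fold). Cpa3 to Hdc was 1.28, 9.62 and 6.83 in Tet2+/+ mice 19, 23 and 24, against 0.633, 0.158 and 0.115 in Tet2-/- mice 5, 7 and 8, so that every Tet2-/- ratio lay below every Tet2+/+ ratio. Per length, Cpa3 was the more abundant in the 3 Tet2+/+ mice and in mouse 5 (56.95 against 36.4 TPM), and Hdc in mice 7 (99.6 against 33.1 TPM) and 8 (41.05 against 11.5 TPM). Together they held between 86.1% and 93.4% of the summed CPM of the 8 genes. Sums of the other 6 genes were 69.2, 28.3 and 58.6 CPM in mice 19, 23 and 24 and 25.7, 47.2 and 26.4 CPM in mice 5, 7 and 8, with mouse 23 among the Tet2-/- mice and mouse 7 within the Tet2+/+ range. The 2 genes that separated the genotypes did not share an order either: within Tet2-/- mice, Cpa3 was highest in mouse 5 and lowest in mouse 8, and Cd200r3 was the reverse.

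Gata2, which encodes the factor, was at 23.3, 27.9 and 27.3 CPM in mice 19, 23 and 24 and at 8.60, 4.44 and 5.21 CPM in mice 5, 7 and 8 (log2 fold change -2.10, SE 0.30; edgeR adjusted p = 0.117). The ratio of Cpa3 to Gata2 CPM was between 10.2 and 13 in 5 mice of both genotypes and 3.23 in mouse 8. None of the rest of the 8 tested genes kept its ratio to Gata2 within the 4.02-fold range of Cpa3. For Cd200r3 the range was 5.02-fold and for Ms4a2 21.6-fold. Genes outside the 10 were not part of this comparison. Among them, Jchain had a log2 fold change of -2.02, near that of Gata2, so that a narrow range need not be particular to Cpa3. These ratios are descriptions over 6 mice that share the 2 genotypes.

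**Figure D4:**
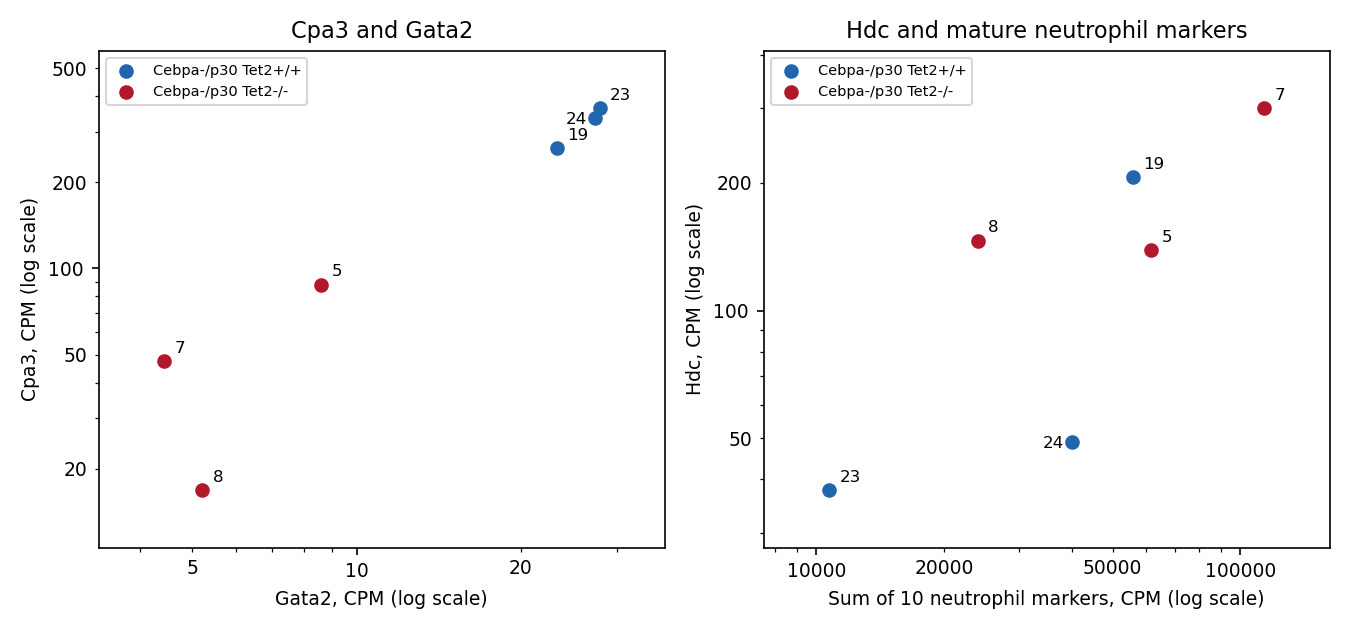
Left, Cpa3 against Gata2, and right, Hdc against the sum of 10 mature neutrophil markers, in TMM-normalized CPM on log axes, with 1 numbered point for each mouse (blue, Tet2+/+; red, Tet2-/-). Cpa3 and Gata2 separate the genotypes together, while for Hdc mouse 19 (206 CPM) lies among the Tet2-/- mice.

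Other genes of these lineages were read from lists that exclude the 10 genes. Counts of genes at an unadjusted p under 0.05 stand beside 5.12% lower and 3% higher over all genes tested. In the list of the IgE receptor's shared chain and signalling, edgeR called 2 of 19 genes lower and 1 higher at that level, and 0 passed the adjusted threshold. The median log2 fold change was 0.28, 16 of the 19 were positive, and the genotypes did not overlap for 5 genes with Tet2-/- higher and 2 with Tet2-/- lower (over all genes, 8.24% and 7.71%). Among the 5 was Lyn, the kinase that starts the signal (260 ± 18.5 and 349 ± 47.1 CPM, SD, n = 3 each; log2 fold change 0.43), the 1 gene called higher, which was named after its values were seen. Plcg1, the phospholipase that raises calcium, was at 34.6 ± 5.34 and 15.7 ± 3.63 CPM (SD, n = 3 each), a log2 fold change of -1.14. Lat, the adaptor that holds it, was at 10.2 ± 3.80 and 3.22 ± 1.72 CPM (SD, n = 3 each), a log2 fold change of -1.66. The gene with the largest positive value was Orai1, the calcium channel (0.51), followed by the adaptor Lat2 (0.48).

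Cpa3 set aside, many granule genes of tissue mast cells had few or no reads. Of 19 genes in the list of mast cell proteases and granule genes, which also holds receptor genes, 10 had no mouse with more than 3 reads, and 8 of these had 0 reads throughout. Examples, named after their values were seen, are the tryptase gene Tpsb2 with 0 reads and the chymase gene Mcpt4 with 1 read in mouse 24. The 9 genes tested had a median of -0.08, with 1 lower (Cma1, a chymase named after its values were seen, with 15 reads in mouse 24 and at most 1 read elsewhere) and 1 higher at an unadjusted p under 0.05 with edgeR. The higher gene was Serpinb1a, an inhibitor of granule serine proteases that neutrophils also contain (414 ± 151 and 874 ± 248 CPM, SD, n = 3 each; log2 fold change 1.08). Srgn, the granule proteoglycan serglycin, had a log2 fold change of 0.30, Ctse of -0.46 and Ndst2, an enzyme of heparin synthesis, of -0.33. Among 12 tested genes of amine and lipid mediators, Alox5ap, the activating protein of leukotriene synthesis, was at 470 ± 53.9 and 888 ± 279 CPM (SD, n = 3 each; log2 fold change 0.92), and Hpgds, the prostaglandin D synthase of hematopoietic cells, had a log2 fold change of -1.34 (edgeR adjusted p = 0.666). For Hnmt, which breaks down histamine, the value was -0.99, and for Ptgs1, a cyclooxygenase, 0.75. That list had 1 gene lower and 1 higher at an unadjusted p under 0.05, and its median was -0.30 over all genes tested and 0.18 over the 9 whose mean was 1 CPM or more.

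Of the 23 transcription factors of the lineages, 7 were lower and 1 higher at an unadjusted p under 0.05 (over all genes, 5.12% and 3%), 0 at an adjusted p under 0.05 with edgeR, and a median of -0.06. Beside Gata2, the most negative was Ikzf2, which encodes Helios (49.7 ± 22.1 and 9.41 ± 5.10 CPM, SD, n = 3 each; log2 fold change -2.39). The most positive was Nfil3 (22.1 ± 7.01 and 43.6 ± 12.5 CPM, SD, n = 3 each; log2 fold change 0.98), followed by Cebpe, a factor of late granulocytes, with a log2 fold change of 0.67. Growth factor and alarmin receptors had 1 of 18 genes lower and 1 higher with a median of 0.38, and the lower one was Il5ra, the interleukin-5 receptor of eosinophils and basophils (14.2 ± 7.02 and 2.98 ± 1.54 CPM, SD, n = 3 each; log2 fold change -2.26). Adora3, an adenosine receptor, had a log2 fold change of -1.09, and the complement receptors C3ar1 and C5ar1 had 1.17 and 0.89, all 3 with overlap between the genotypes. Cytokine and surface genes had 3 of 21 lower and 1 higher with a median of -0.02. The log2 fold change was -1.34 for Itga2b, the integrin of megakaryocytes and early progenitors, -1.26 for the chemokine gene Ccl4, 1.77 for Ifitm1 and 1.01 for Lmo4.

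**Figure D5:**
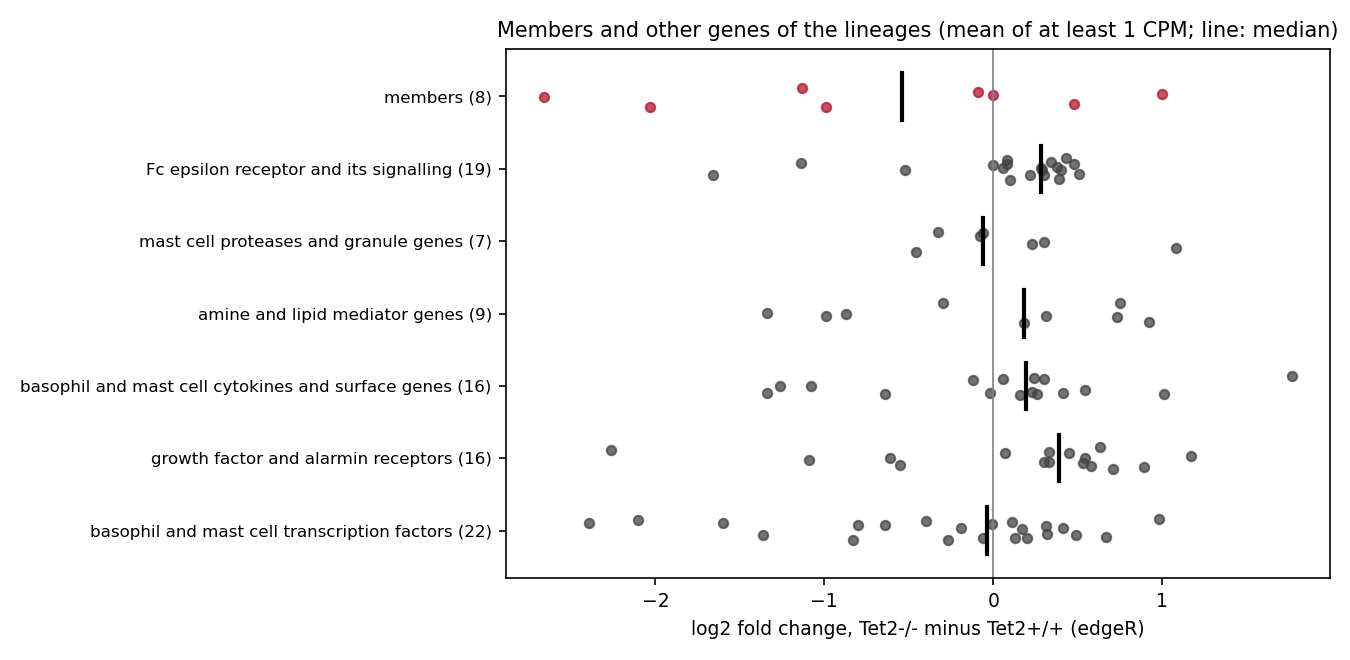
Log2 fold change from edgeR (x axis, Tet2-/- minus Tet2+/+) of the 8 tested genes (red) and of other genes of the lineages (grey) whose mean was 1 CPM or more, 1 point for each gene, with the number of genes in parentheses and the median as a black line. The 8 genes run from -2.66 to 1.0 and each of the 6 other lists has genes on both sides of 0.

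Markers of neighbouring lineages were read in the same fit. Stem and progenitor markers had a median log2 fold change of -1.14 over the 11 genes above 3 reads (-0.91 with Mecom, at 1 or 2 reads in each mouse), and their sum was 369 to 516 CPM in Tet2+/+ and 171 to 248 CPM in Tet2-/- mice. The list held genes in both directions: 9 of the 11 were negative and 2 positive, and the 2 positive were among only 5 whose mean was 1 CPM or more. These were Flt3, a cytokine receptor of early progenitors (8.28 ± 4.82 and 27.9 ± 28.5 CPM, SD, n = 3 each; log2 fold change 1.75), and Ly6a, which encodes Sca-1 (log2 fold change 1.09), both with overlap between the genotypes. Cd34 had a log2 fold change of -1.41. One gene of the list, Angpt1, the angiopoietin of hematopoietic progenitors, was the only gene of all lists that passed the adjusted threshold (79.3 ± 20.7 and 11.1 ± 2.34 CPM, SD, n = 3 each; log2 fold change -2.84, SE 0.27; edgeR adjusted p = 0.0348). Eosinophil markers summed to 292 to 347 and 148 to 376 CPM, megakaryocyte markers to 111 to 148 and 44.3 to 138 CPM, and monocyte markers to 1740 to 3350 and 2510 to 5630 CPM. B and plasma cell markers summed to 161 to 265 and 51.5 to 110 CPM, with Jchain, the joining chain of antibodies, at a log2 fold change of -2.02 without overlap. Cpa3, the stem and progenitor sum and the B and plasma cell sum were thus all lower in every Tet2-/- mouse than in every Tet2+/+ mouse. In both sums 1 or 2 genes carried the separation. Without Angpt1 and Cd34 the stem and progenitor sum was 105 to 151 against 63.4 to 145 CPM, and without Jchain the B and plasma cell sum was 25.9 to 99.1 against 23.9 to 65.6 CPM, both with overlap. The part of these cells in the Cpa3 values was not tested.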

How the data were processed

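Bone marrow AML blasts of 6 mice were compared, 3 Cebpa-/p30 Tet2+/+ and 3 Cebpa-/p30 Tet2-/-, with groups taken from the sample titles. Per the study's methods, TruSeq v2 libraries were quantified against Ensembl transcripts of GRCm38 through bcbio, and the submitters' processing notes name Salmon 0.12.0 and GRCm38.p6. The TruSeq v2 kit does not mark strand. The deposited files give Salmon's estimated counts for each transcript, which are not normalized between mice. They also give TPM, which the authors left as Salmon computes it from effective lengths. Other deposited columns hold transcript lengths and served only for length scaling.

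Estimated counts were summed to 53458 GENCODE M21 genes (Python 3.11.15, pandas 2.3.3) and rounded, and 112 transcripts without a gene, with at most 0.0416% of the reads, were left out. Depth was 13036643 to 32855343 reads, and TMM factors were 0.867 to 1.11. Genes with library-size-normalized counts summing to at least 10 entered edgeR's quasi-likelihood test (edgeR 4.0.16, R 4.3.3), without covariates, with Benjamini-Hochberg adjustment over 22170 genes and a threshold of 0.05. Standard errors were derived from the fold change and its F statistic. CPM are TMM-normalized. Exact permutation tests used scipy 1.17.1. No fold is given for a gene at or under 3 reads in every mouse, although 1 such list gene, Mecom, passed the filter, and this limit covers counting error only. The scripts were tested on simulated data.

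The 10 genes and all lists were chosen with earlier results of these data known. Named genes are the 10, Gata2, Tet2 and Cebpa, and from each list those past the adjusted threshold and the 2 most negative and 2 most positive log2 fold changes among genes whose mean was 1 CPM or more; for the remaining cell type lists only sums and single genes of that choice are given. Any further name was picked with its values known and is marked so. Alternatives were DESeq2 1.42.0, length-scaled counts as the study used with DESeq2, no filter, filterByExpr, RLE factors, library size only, robust estimation, TPM on a log2 scale with a pseudocount of 0.1, and leaving out each mouse. BLAST+ 2.17.0 found 0 matches of the transcripts of the 10 genes to other genes at 95% identity over 50% of a transcript. Exons of Slc18a2 and Cyp11a1 overlap those of 1 other gene each, Gm29261 (antisense) and Gm17322, which had at most 1 read in any mouse. Promoter windows came from RefSeq (GRCm38.p6), and figures were drawn with matplotlib 3.10.9. No batch is given in the labels.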

Additional observations from a re-analysis of the deposited data

How the results depend on the processing

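Cpa3, Cd200r3, Cyp11a1 and Mcpt8 kept their negative direction and Hdc and Ms4a2 their positive direction in each of the alternative fits and with each mouse left out. Log2 TPM was used for the values across mice and not for fold changes. With DESeq2, Cpa3 and Cd200r3 passed the adjusted threshold (Cpa3 -2.66, Cd200r3 -2.03 on the log2 scale), as with DESeq2 on length-scaled counts (-2.64 and -2.10), which gave 2 of the 10 genes called lower in each case. Each mouse was left out with edgeR only, which called 0 of the 10 genes at the adjusted threshold with all 6 mice too. These fits gave 0 of them at that threshold, and 2 to 3 lower and 0 to 1 higher at an unadjusted p under 0.05. Over all genes they called 768 to 1161 lower and 250 to 1016 higher at that p. DESeq2 was not refitted without a mouse, so that the stability of its calls was not tested. Slc18a2 ranged from -0.39 to 0.44 and reversed without mouse 19 (0.44) and without mouse 8 (0.14). Without a mouse the medians ranged for the 8 tested genes from -0.87 to -0.26, for receptor signalling from 0.09 to 0.29, for mediators from -0.36 to 0.15, for cytokine and surface genes from -0.29 to 0.08, for megakaryocyte markers from -0.58 to 0.82, for erythroid markers from -2.55 to -0.01, for stem and progenitor markers, here with Mecom, from -1.47 to -0.66, for primary granule genes from -0.24 to 0.24, for plasmacytoid dendritic cell markers from -0.80 to -0.20 and for B and plasma cell markers from -1.87 to -0.32. With filterByExpr the medians of mediators and of stem and progenitor markers were -0.08 and -0.63, and with length-scaled counts the latter was -0.48 with edgeR and -0.48 with DESeq2. Scaling by library size only gave 0.10 for receptor signalling and -0.23 for transcription factors, and moved the median of all genes to -0.17. At an unadjusted p under 0.05 it called 258 genes higher and 1565 lower, with 3 of the 10 genes among the lower. On log2 TPM, mouse 5 was above the mean for 2 genes, and the Hdc-201 share differed by 3.86 percentage points in TPM.

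Over all genes, the number lower at an adjusted p under 0.05 was 326 with DESeq2 and 322 with DESeq2 on length-scaled counts. With edgeR it was 5 with length-scaled counts, 62 without a filter and 0 to 7 without a mouse. The number higher was 59, 64, 0, 4 and 0 in the same order, and 1 each with RLE factors and filterByExpr, and at an unadjusted p under 0.05 it was 250 to 1016 without a mouse. Of 509 alternative values over 44 results, 463 kept their direction and side of the threshold or stayed within their spread. All fits of Il1rl1 were counted among these, because its fold change of 0.00 has no direction to keep. With each mouse left out it ranged from -1.0 to 0.68. The causes of these differences were not tested. No paired analysis was possible because the sample numbers (19, 23 and 24 against 5, 7 and 8) are not shared between the genotypes. The number of mice, 3 per genotype, limits what could be resolved, as do the 28 to 208 reads behind Cd200r3.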
